A study of Mus musculus with 2 samples.

Results

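Threonine, glycine and one-carbon metabolism was followed through 10 genes, Tdh, Gcat, Gldc, Shmt1, Shmt2, Mthfd1, Mthfd2, Mthfd1l, Bhmt and Bcat1, which are 10 of the 33963 gene symbols in a single-cell RNA-seq table of mouse cells that return from the primed to the naive pluripotent state. The genes were chosen by symbol, and all 10 were found. Each was described by its summed level in every population and by the share of cells with a read.

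The populations were 5. Naive cells were mouse embryonic stem cells of a Rex1-GFP reporter line. Primed cells were mouse epiblast stem cells of the Oct4GIP line, which carries a GFP and puromycin resistance cassette under Oct4 control, and were kept in FGF2 and Activin A. For reversion they were placed on mouse embryonic fibroblasts (MEFs) 1 day before the treatment. The d8 and d16 populations were Oct4GIP cells treated for 8 or 16 days with AICAR, an activator of AMP-activated protein kinase (AMPK), together with leukemia inhibitory factor (LIF). The d16+10p population was derived from such reverted cells by 10 passages in 2iL, which contains inhibitors of MEK and GSK3 with LIF. The strain label was 129/Ola. Each population was 1 sample with its own tag, and all were read in 1 pooled library, so no difference below has a replicate check and no p-value is given. The naive cells are of another line than the remaining populations, so that line and state cannot be told apart in any comparison with them. Media differed as well. Naive and d16+10p cells were kept with 2iL, and primed cells in a serum-free medium. The d8 and d16 cells were in a medium with serum and serum replacement, beside AICAR and LIF. Between populations kept in different media, medium and added compounds therefore cannot be told apart from state either.

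Threonine dehydrogenase, encoded by Tdh, starts the breakdown of threonine in mitochondria, and glycine C-acetyltransferase, encoded by Gcat, completes it to glycine and acetyl-CoA. The glycine cleavage system and the serine hydroxymethyltransferases pass carbon units from glycine and serine to folate, and the folate enzymes of the Mthfd family carry these units between oxidation states for the synthesis of purines, thymidylate and methionine. Mouse embryonic stem cells are known for high Tdh and for their need of threonine in culture.

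The table held 307121033 reads in 17720 cells, of which 801 cells carried the naive tag, 1826 the primed, 9627 the d8, 4315 the d16 and 1151 the d16+10p tag. The labels give the loaded cells as 500 each for naive and primed, 9000 each for d8 and d16 and 1000 for d16+10p, so every tag but d16 held more cells than were loaded under it. Median reads per cell ranged from 10185 in d16 to 21551 in d16+10p. The d16 cells were split at 1000 CPM (reads per 1000000 reads of the cell or group) of Dppa5a, a gene of the naive state, into 1278 Dppa5a-high cells (29.6%, 95% interval 28.3 to 31%) and 3037 Dppa5a-low cells. Naive markers were high in the naive and d16+10p tags and in d16 Dppa5a-high cells, and low in the primed tag as a whole. As Dppa5a is itself a gene of the naive state, the level of the Dppa5a-high cells is no independent check. The summed level of Zfp42, Esrrb, Tfcp2l1, Nr5a2, Klf2 and Tbx3 was 1130 CPM in naive, 1144 CPM in d16 Dppa5a-high and 982 CPM in d16+10p, against 113 CPM in primed. The tags also held other cells. Fibroblast markers (Col1a1, Col1a2, Col3a1, Dcn, Lum, Postn) summed to 1676 CPM in the primed tag and 3478 CPM in d16 Dppa5a-low, against 512 to 677 CPM in naive, d16 Dppa5a-high and d16+10p. After the levels had been seen, 659 primed cells were therefore gated on at least 500 CPM of pluripotent markers and less than 1000 CPM of Dppa5a, in which the fibroblast sum was 600 CPM. These are called gated primed cells. Naive and d16+10p cells with at least 1000 CPM of Dppa5a, 570 and 926 cells, are called gated as well.

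Intervals given in parentheses after a level are exact Poisson intervals at 95% of the summed reads. Reads of amplified cDNA are not independent molecules, so every interval covers counting error only. In sums over cells, fewer cells that express a gene and less RNA per cell cannot be told apart.

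Tdh (chromosome 14, 63492347 to 63509092; coordinates of genes are those of RefSeq on GRCm38.p6) was high in naive, d16 Dppa5a-high and d16+10p cells and low in the other tags as a whole. Its level was 282 CPM (275 to 290) in naive, 135 CPM (130 to 141) in d16 Dppa5a-high and 288 CPM (281 to 295) in d16+10p. It was 13 CPM (11.7 to 14.4) in primed, 9.31 CPM (8.87 to 9.77) in d8 and 9.50 CPM (8.51 to 10.6) in d16 Dppa5a-low. The lower 3 values lay below the 18.9 CPM (17.0 to 20.8) of cells with at least 2000 CPM of macrophage genes. These cells, taken from all tags, should lack Tdh, but they also held 148 CPM of naive markers. The naive markers summed to 113 CPM in primed, 92.7 CPM in d8 and 111 CPM in d16 Dppa5a-low. This macrophage gate is therefore no clean background, and the lower 3 values are only said not to exceed it. In gated primed cells Tdh was at 12.7 CPM (10.9 to 14.7). That gate leaves out cells with at least 1000 CPM of Dppa5a, which in the primed tag were 62 cells with Tdh at 74.0 CPM (57.7 to 93.5) and 70 of its 362 Tdh reads. In the d8 tag, 72 such cells had Tdh at 48.3 CPM (38.5 to 60.01). The shares of these cells with a read after thinning were 35.6% (23.6 to 49.1%) in the primed and 19.4% (10.4 to 31.4%) in the d8 tag, so Dppa5a-high cells of every tag had more Tdh than their tag as a whole. Naive markers summed to 899 CPM in these cells of the primed tag, against 84.6 CPM in gated primed cells. In those of the d8 tag they summed to 545 CPM, beside 4933 CPM of macrophage markers. Whether these cells were of the population that their tag names was not tested. The levels of naive and d16+10p had overlapping intervals and lay highest, with d16 Dppa5a-high between them and the other tags.

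The share of cells with a Tdh read gave the same order. After thinning of each cell to 5000 reads, which removes the differences in depth, 59.1% (55.4 to 62.7%) of naive, 36.7% (34.0 to 39.4%) of d16 Dppa5a-high and 62.6% (59.6 to 65.5%) of d16+10p cells had a read. The shares of 5.85% in primed, 4.36% in d8 and 4.37% in d16 Dppa5a-low did not exceed the 7.54% (5.95 to 9.40%) of the macrophage gate either. Before thinning the shares were 72.2% in naive, 58.8% in d16 Dppa5a-high, 79.5% in d16+10p and 16.0% in the macrophage gate, which had a median of 16078 reads. Of the 570 gated naive cells, 95.3% had a Tdh read before thinning, and 75.2% of those kept after it.

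**Figure D1:**
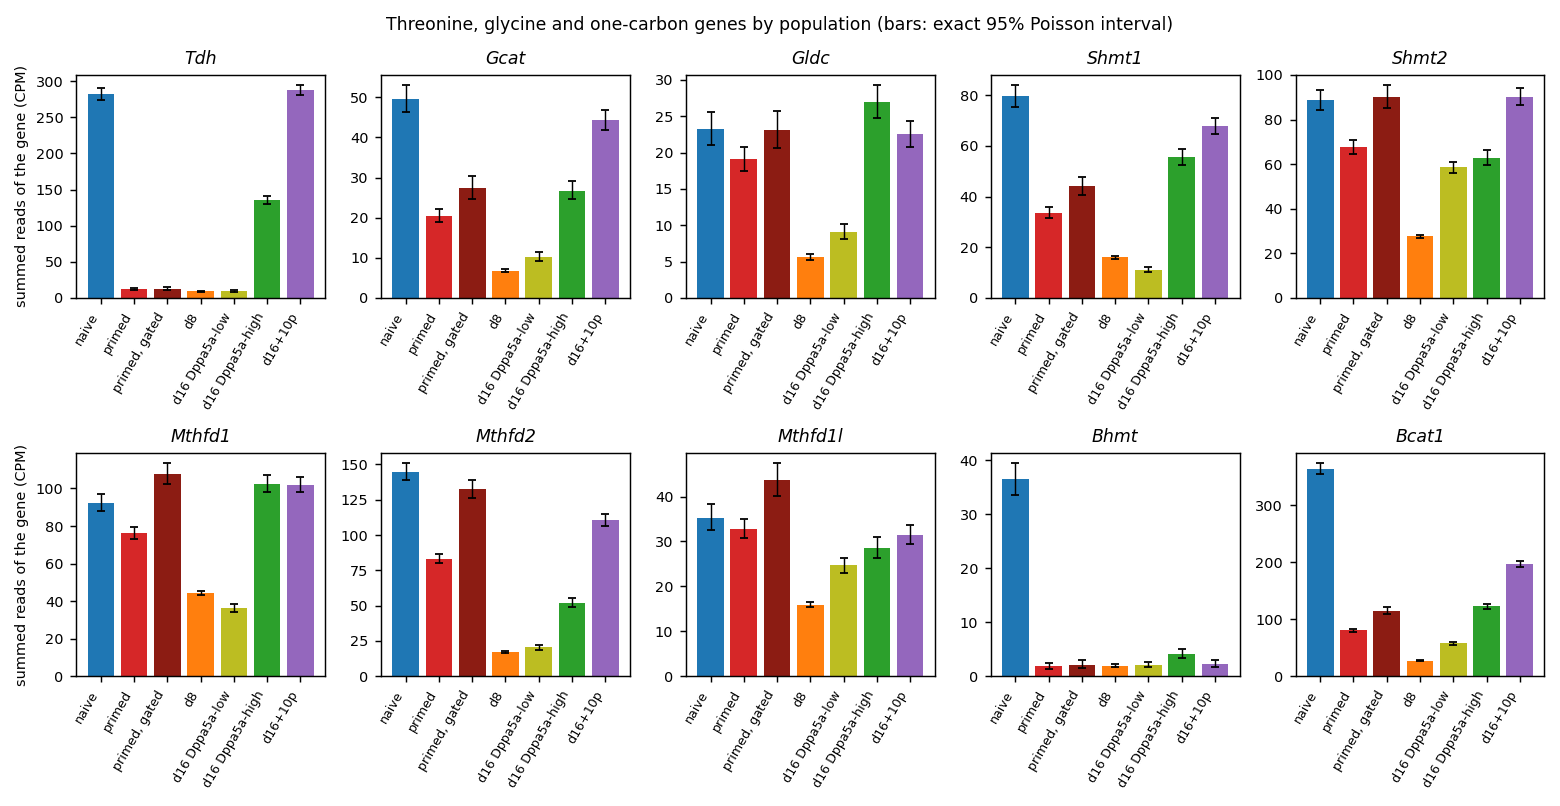
Summed level of each gene in CPM (vertical axis, a separate scale for each gene) in the populations on the horizontal axis; bars are levels, and error bars are exact 95% Poisson intervals of the summed reads. Tdh is at 282 CPM in naive, 135 CPM in d16 Dppa5a-high and 288 CPM in d16+10p and at most 13 CPM elsewhere, while Bhmt is at 36.5 CPM in naive and at most 4.14 CPM elsewhere.

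Gcat (chromosome 15, 79030874 to 79042531), the enzyme that follows Tdh, had a flatter course. It was at 49.6 CPM (46.3 to 53.0) in naive, 20.5 CPM (18.9 to 22.3) in primed, 6.83 CPM (6.45 to 7.22) in d8, 10.3 CPM (9.29 to 11.4) in d16 Dppa5a-low, 26.7 CPM (24.5 to 29.0) in d16 Dppa5a-high and 44.3 CPM (41.8 to 46.9) in d16+10p. Unlike Tdh, Gcat was as high in gated primed cells, at 27.4 CPM (24.7 to 30.4), as in d16 Dppa5a-high. The log2 ratio of d16 Dppa5a-high to gated primed cells, which here and below is that of CPM with a pseudocount of 1 CPM, was −0.04 for Gcat and 3.32 for Tdh. The pair of enzymes of this route thus differed between these cells in the first step and not, beyond counting error, in the second.

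Gldc (chromosome 19, 30098441 to 30175441), the decarboxylase of the glycine cleavage system, did not separate naive from primed cells. It was at 23.3 CPM (21.0 to 25.6) in naive, 23.1 CPM (20.6 to 25.8) in gated primed, 27.0 CPM (24.8 to 29.3) in d16 Dppa5a-high and 22.5 CPM (20.7 to 24.4) in d16+10p. The lower values were 5.64 CPM (5.29 to 5.99) in d8 and 9.07 CPM (8.10 to 10.1) in d16 Dppa5a-low, with 19.1 CPM (17.5 to 20.8) over all cells of the primed tag. Amt, the aminomethyltransferase of the same complex, was at 77.4 CPM in d16 Dppa5a-high and 31.5 CPM in gated primed cells, a log2 ratio of 1.27, while Gldc had a log2 ratio of 0.22.

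The serine hydroxymethyltransferases, which move a carbon unit from serine to folate in the cytosol (Shmt1, chromosome 11, 60788897 to 60811265) and in mitochondria (Shmt2, chromosome 10, 127517123 to 127522444), differed from each other. Shmt1 was at 79.7 CPM (75.5 to 84.0) in naive, 55.7 CPM (52.5 to 59.0) in d16 Dppa5a-high and 67.9 CPM (64.7 to 71.1) in d16+10p, and at 33.5 CPM (31.4 to 35.7) in primed, 16.1 CPM (15.5 to 16.7) in d8 and 11.2 CPM (10.1 to 12.4) in d16 Dppa5a-low. Shmt2 was at 88.5 CPM (84.2 to 93.1) in naive, 67.6 CPM (64.6 to 70.7) in primed, 62.9 CPM (59.5 to 66.4) in d16 Dppa5a-high and 90.2 CPM (86.6 to 93.9) in d16+10p. In gated primed cells Shmt1 was at 44.1 CPM (40.7 to 47.8) and Shmt2, near its naive level, at 90.2 CPM (85.2 to 95.4). Within d16 the cytosolic gene had a log2 ratio of 2.21 between Dppa5a-high and Dppa5a-low cells, and the mitochondrial gene, at 58.5 CPM (56.0 to 61.1) in the low cells, one of 0.10. The lowest Shmt2 level was that of d8, with 27.6 CPM (26.8 to 28.3).

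The folate enzymes of the Mthfd family fell into different courses. Mthfd1 (chromosome 12, 76254406 to 76319820), the cytosolic enzyme with 3 activities, was at 92.4 CPM (87.9 to 97.1) in naive, 108 CPM (102 to 113) in gated primed, 103 CPM (98.2 to 107) in d16 Dppa5a-high and 102 CPM (98.2 to 106) in d16+10p. Over all cells of the primed tag it was at 76.3 CPM (73.1 to 79.6). It was lower in the populations with few pluripotent cells, at 44.4 CPM (43.4 to 45.4) in d8 and 36.3 CPM (34.4 to 38.4) in d16 Dppa5a-low. Mthfd1l (chromosome 10, 3972892 to 4167081), the mitochondrial formate-tetrahydrofolate ligase, changed little across the d16 split, from 24.7 CPM (23.1 to 26.4) in the low to 28.6 CPM (26.3 to 31) in the high cells. In naive it was at 35.3 CPM (32.6 to 38.2), in primed at 32.9 CPM (30.8 to 35.1), in d8 at 15.9 CPM (15.3 to 16.5) and in d16+10p at 31.5 CPM (29.4 to 33.8). Gated primed cells had 43.7 CPM (40.2 to 47.4) of Mthfd1l.

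Mthfd2 (chromosome 6, 83305704 to 83326011), the mitochondrial dehydrogenase and cyclohydrolase, was lower in d16 Dppa5a-high cells than in both naive and primed cells. It was at 52.0 CPM (49.0 to 55.2) in d16 Dppa5a-high, against 145 CPM (139 to 151) in naive, 83.3 CPM (80.0 to 86.8) in primed, 133 CPM (127 to 139) in gated primed and 110 CPM (106 to 115) in d16+10p. In d8 it was at 17.3 CPM (16.7 to 17.9) and in d16 Dppa5a-low at 20.4 CPM (18.9 to 22.0). After thinning, 18.7% (16.6 to 21.0%) of d16 Dppa5a-high cells had a Mthfd2 read, 40.5% (36.9 to 44.2%) of naive and 35.6% (32.7 to 38.5%) of d16+10p cells. The shares in d8 and d16 Dppa5a-low were 6.41% and 7.48%, beside 9.21% (7.46 to 11.2%) in the macrophage gate, where Mthfd2 was at 25.3 CPM. Whether macrophages express Mthfd2 is not known here, so the gate is no measure of background for it.

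Bcat1 (chromosome 6, 144993835 to 145076157), the cytosolic aminotransferase of branched-chain amino acids, stepped down from naive cells through every other population. It was at 364 CPM (355 to 373) in naive, 197 CPM (192 to 203) in d16+10p, 123 CPM (118 to 128) in d16 Dppa5a-high and 115 CPM (110 to 121) in gated primed cells. The tag of the primed cells as a whole gave 80.3 CPM (77 to 83.7), d16 Dppa5a-low 57.9 CPM (55.5 to 60.5) and d8 27.4 CPM (26.7 to 28.2). The intervals of d16 Dppa5a-high and gated primed cells overlapped, and all other neighbours in this order had intervals that did not. The thinned share of cells with a Bcat1 read was 68.6% in naive, 52.7% in d16+10p and 38.6% in d16 Dppa5a-high, against 12.7% (10.6 to 14.9%) in the macrophage gate.

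Bhmt, which encodes betaine-homocysteine methyltransferase, was found at a level above the macrophage gate in naive cells and at most slightly above it elsewhere. It was at 36.5 CPM (33.7 to 39.4) in naive, 1.90 CPM (1.42 to 2.49) in primed, 2.00 CPM (1.79 to 2.21) in d8, 2.17 CPM (1.71 to 2.71) in d16 Dppa5a-low, 4.14 CPM (3.31 to 5.11) in d16 Dppa5a-high and 2.33 CPM (1.78 to 2.99) in d16+10p. The macrophage gate, which should lack the gene, was at 2.50 CPM (1.87 to 3.28). With 148 CPM of naive markers, it is no clean background for Bhmt either. Only d16 Dppa5a-high exceeded the gate among the populations other than naive, and its interval lay just above. The share of cells with a read after thinning was 13.8% (11.4 to 16.5%) in naive, 1.86% (1.18 to 2.77%) in d16 Dppa5a-high, 1.48% (0.848 to 2.39%) in d16+10p and 1.15% (0.576 to 2.05%) in the macrophage gate. By cells the populations other than naive thus did not stand apart from the gate.

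**Figure D2:**
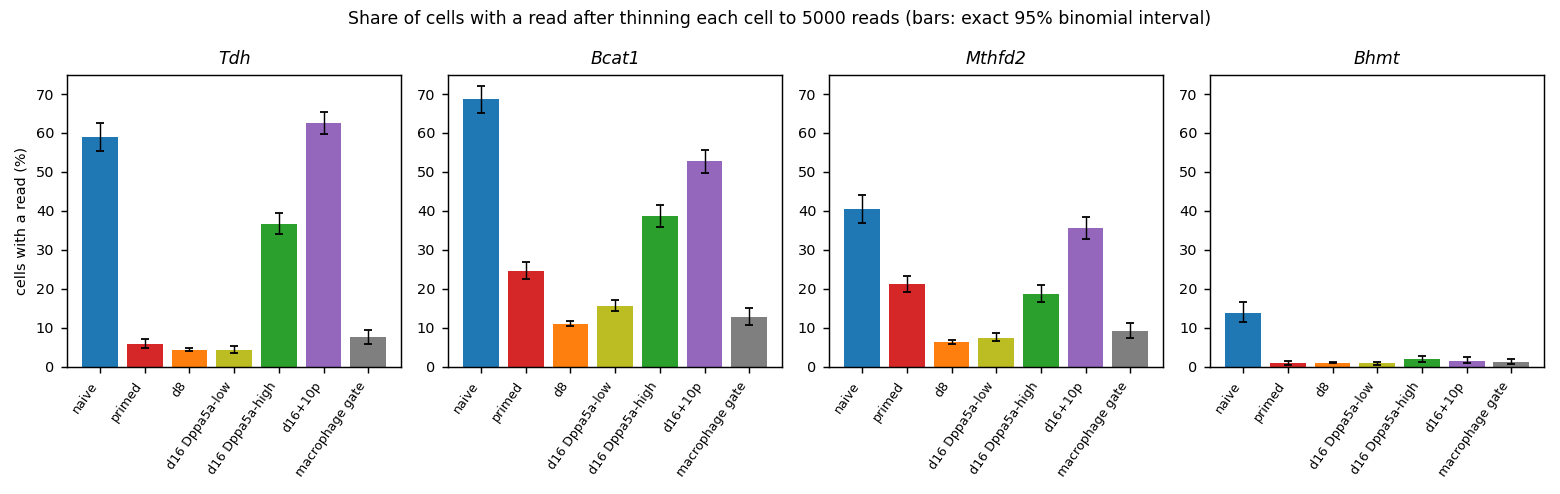
Percent of cells with at least 1 read (vertical axis) after each cell was thinned to 5000 reads. Values are for 4 genes in the populations on the horizontal axis and in cells of the macrophage gate. The gate is shown for comparison and is no clean background for any of the 4. Error bars are exact 95% binomial intervals. Tdh is read in 59.1% of naive, 36.7% of d16 Dppa5a-high and 62.6% of d16+10p cells against 7.54% of the macrophage gate, and Bhmt in 13.8% of naive cells and at most 1.86% of any other population.

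The Bhmt and Bcat1 promoters are shown because these genes were the ones whose level in d16+10p stayed farthest below naive, and the stretch between Bhmt2 and Dmgdh because these neighbours of Bhmt had the same course, as given further on. The first and second lines are the 250 bases before the RefSeq start site on the strand of the gene, at chr13:93637759-93638008 (minus strand) and chr6:145076158-145076407 (minus strand), and the third is the whole 133 bases between the divergent starts of Bhmt2 and Dmgdh, at chr13:93674303-93674435 (plus strand), all from RefSeq on GRCm38.p6. Capitals mark matches to 7 motifs that were searched on both strands, where the CCAAT box of one strand reads ATTGG on the other: the octamer ATGCAAAT, the ESRRB motif CAAGGTCA, the KLF motif CCACACCC, the CHOP-ATF4 composite TGATGNAA, the TATA box TATAAA, the CCAAT box CCAAT and the E2F motif TTTCCCGC.
Bhmt: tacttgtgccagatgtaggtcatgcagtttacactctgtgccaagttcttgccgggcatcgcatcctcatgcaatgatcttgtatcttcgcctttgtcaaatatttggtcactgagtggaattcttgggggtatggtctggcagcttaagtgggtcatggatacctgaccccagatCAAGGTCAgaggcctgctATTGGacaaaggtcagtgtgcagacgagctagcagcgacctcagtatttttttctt
Bcat1: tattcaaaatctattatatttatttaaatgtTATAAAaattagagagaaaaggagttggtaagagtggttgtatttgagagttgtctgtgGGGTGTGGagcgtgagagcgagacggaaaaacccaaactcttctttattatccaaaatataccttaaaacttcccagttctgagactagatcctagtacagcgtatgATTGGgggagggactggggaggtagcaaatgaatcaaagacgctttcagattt
Bhmt2-Dmgdh: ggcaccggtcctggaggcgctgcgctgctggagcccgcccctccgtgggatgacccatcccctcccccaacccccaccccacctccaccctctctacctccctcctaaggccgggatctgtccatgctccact

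Promoter windows were found for 9 of the 10 genes. The Bhmt window held the ESRRB motif, 74 bases before the start, which 1.33% of all 32851 RefSeq windows of that length held. It also had a CCAAT box, 56 bases before the start. The first of the Bcat1 windows held a KLF motif (3.20% of all windows), a TATA box (12.4%) and a CCAAT box, at 160, 219 and 53 bases before the start. A CCAAT box was found for 6 of the 9 genes, Gldc, Shmt1, Mthfd1, Mthfd2, Bhmt and Bcat1, against 33.8% of all windows. The octamer (1.60% of all windows), the CHOP-ATF4 composite (3.45%) and the E2F motif (0.895%) were found for 0 of the 9. These matches describe the letters of the windows and are not measured binding sites.

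The d16 split was then read as a comparison within 1 population. Of all 11348 genes compared (at least 10 CPM in either group and 100 summed reads), 11.2% were at least 2-fold higher and 16.6% at least 2-fold lower in Dppa5a-high than in Dppa5a-low cells. Of the 10 genes, 9 could be compared, and 7 were higher by this measure and 0 lower. These were Tdh (log2 ratio 3.70), Shmt1 (2.21), Gldc (1.47), Mthfd1 (1.47), Mthfd2 (1.31), Gcat (1.29) and Bcat1 (1.07). Shmt2 (0.10) and Mthfd1l (0.20) were within 2-fold, and Bhmt did not reach 10 CPM. The median log2 ratio was 1.31 for the 9 genes and −0.03 for all genes compared. Dppa5a-low cells held other cell types. All 6 fibroblast markers, 4 of 5 neural markers, 4 of 5 smooth muscle markers and 4 of 7 macrophage markers were at least 2-fold higher in them, with sums of 3478, 696, 649 and 915 CPM against 512, 149, 264 and 249 CPM in Dppa5a-high cells, and none of these markers was at 0. Their part in the result was not tested.

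When cells were grouped more finely by their Dppa5a, the d16 population differed from naive and d16+10p at equal Dppa5a. In d16, Tdh was at 8.60 CPM in cells without a Dppa5a read, 8.62 CPM in those above 0 and below 500 CPM, 31.3 CPM from 500 to 1000 CPM and 62.8 CPM from 1000 to 2000 CPM. It reached 128 CPM from 2000 to 4000 CPM of Dppa5a and 169 CPM from 4000 CPM on. The split at 1000 CPM thus lay within a rise and not at a step. In the same order, naive cells were at 8.70, 17.8, 156, 324, 335 and 353 CPM of Tdh, and d16+10p cells at 11.6, 20.2, 138, 228, 331 and 369 CPM. At 2000 to 4000 CPM of Dppa5a the Tdh level of d16 cells was therefore below that of both naive and d16+10p cells, with intervals that did not overlap.

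Bcat1, Mthfd2 and Gcat were also lower in d16 than in naive and d16+10p cells at equal Dppa5a, but their courses differed. Between 2000 and 4000 CPM of Dppa5a, Bcat1 was at 108 CPM in d16, 223 CPM in d16+10p cells and 438 CPM in naive cells. Mthfd2 in these cells was at 48.4 CPM in d16, 123 CPM in d16+10p cells and 177 CPM in naive cells, and Gcat at 28.4, 48.2 and 60.4 CPM. In d16 cells with at least 500 CPM of Dppa5a, Mthfd2 stayed between 47.7 and 57.5 CPM in the 4 groups, while Bcat1 rose from 42.2 to 153 CPM. Mthfd1, the contrast among these genes, was at 100 CPM in d16, 103 CPM in d16+10p cells and 101 CPM in naive cells between 2000 and 4000 CPM of Dppa5a. Bhmt reached at most 7.27 CPM in any of these groups of d16. It was at 3.46 CPM from 2000 to 4000 CPM of Dppa5a and 3.86 CPM from 4000 CPM on, where naive cells had 46.0 and 27.8 CPM.

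**Figure D3:**
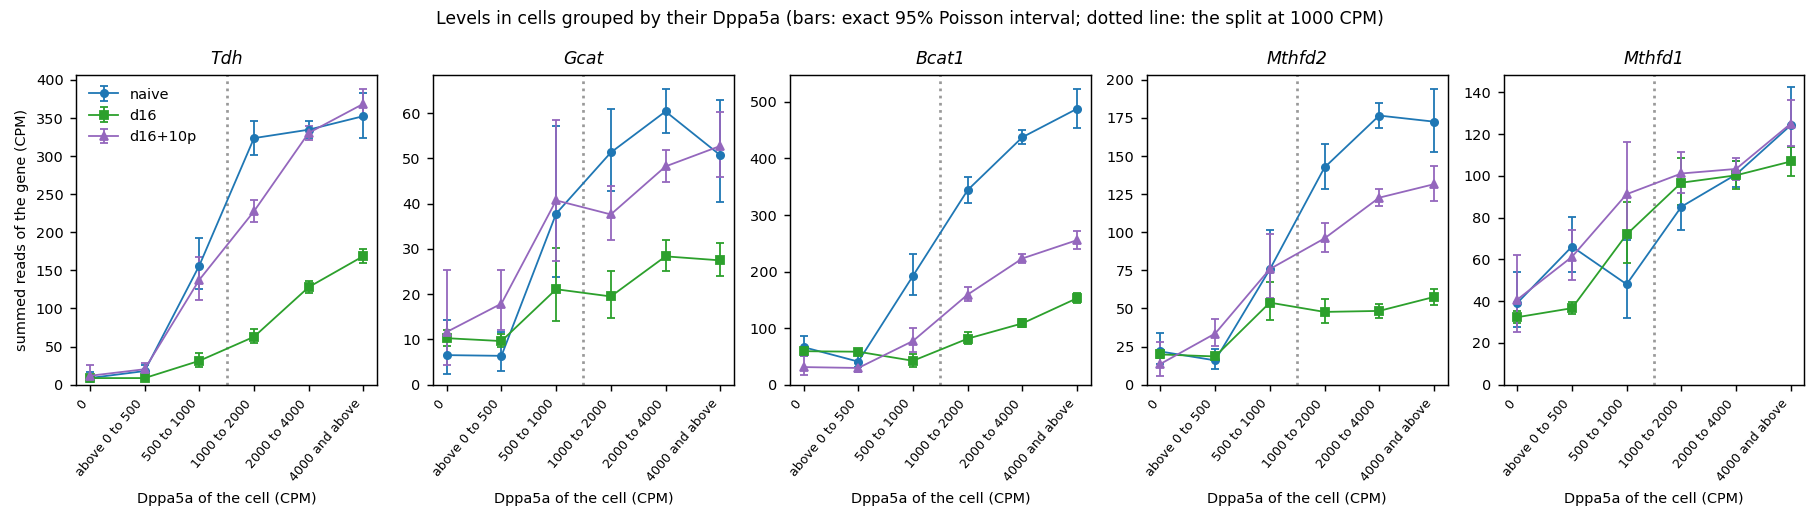
Summed level of 5 genes in CPM (vertical axis, a separate scale for each gene) in cells of naive, d16 and d16+10p grouped by the Dppa5a level of the cell in CPM (horizontal axis, groups of unequal width); error bars are exact 95% Poisson intervals and the dotted line is the split at 1000 CPM. Between 2000 and 4000 CPM of Dppa5a, Tdh is at 128 CPM in d16 against 331 CPM in d16+10p cells and 335 CPM in naive cells, while Mthfd1 lies between 100 and 103 CPM in all 3.

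The d16 Dppa5a-high cells were compared with primed cells, from which the treatment started. Over all cells of the primed tag, 1 of 9 genes compared was at least 2-fold higher, Tdh (log2 ratio 3.29), and 0 were lower, where 6.49% of all genes were higher and 4.78% lower. Against gated primed cells, Tdh (log2 ratio 3.32) was again the 1 higher gene, and Mthfd2 (−1.33) was 1 lower gene. Of all genes, 7.76% were higher and 3.19% lower there. These 2 groups lie on opposite sides of 1000 CPM of Dppa5a, with which Tdh rose in d16 cells. Shmt2 (−0.51) and Mthfd1l (−0.59) were also below gated primed cells, with intervals of the ratio that did not include 0, but within 2-fold. The fibroblast sum was 1676 CPM in the whole primed tag and 600 CPM in the gated cells, beside 512 CPM in d16 Dppa5a-high, and 6 of 6 naive markers were at least 2-fold higher in d16 Dppa5a-high than in the primed tag.

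Against naive cells, d16 Dppa5a-high cells were lower in 4 of the 10 genes by at least 2-fold and higher in 0. Over all genes, 0.977% were lower and 2.66% higher. The lower genes were Bhmt (log2 ratio −2.87), Bcat1 (−1.56), Mthfd2 (−1.46) and Tdh (−1.05). Gcat (−0.87), Shmt1 (−0.51), Shmt2 (−0.49) and Mthfd1l (−0.30) were lower within 2-fold, and Mthfd1 (0.15) and Gldc (0.20) were slightly higher. The median log2 ratio was −0.69 for the 10 genes and 0.04 for all genes compared. Of the 6 naive markers, 0 were past 2-fold in either direction in the same comparison, with sums of 1144 CPM in d16 Dppa5a-high and 1130 CPM in naive. The medians of chromosomes 6 and 11 were −0.17 and −0.13, against 0.04 over the autosomes, and their part in the ratios of Bcat1, Mthfd2 and Shmt1 was not tested. When naive cells were gated on Dppa5a as well, Gcat (−1.08) joined the lower genes, which were then 5, with 0 higher, where 1.31% of all genes were lower and 3.09% higher.

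Several of these genes were at higher levels after passaging in 2iL. Over this step AICAR and the MEFs were also left out and the medium was changed, which cannot be told apart from passaging. From d16 Dppa5a-high to d16+10p, 2 of 9 genes compared were at least 2-fold higher, Tdh (log2 ratio 1.08) and Mthfd2 (1.07), where 0.557% of all genes were, and 0 were lower, where 1.63% of all genes were. Gcat (0.71), Bcat1 (0.68) and Shmt2 (0.51) were higher within 2-fold. Mthfd1 (−0.01) and Mthfd1l (0.14) had intervals of the ratio that included 0, and Gldc (−0.25) was lower. In the same comparison 2 of 5 neural markers were at least 2-fold higher, with sums of 235 CPM in d16+10p and 149 CPM in d16 Dppa5a-high, and 2 of 6 pluripotent markers lower, with 774 and 1398 CPM. The macrophage markers summed to 458 and 249 CPM. Their part in the result was not tested. The ratios of Tdh and Mthfd2 lay close to the limit of 2-fold. With a pseudocount of 10 CPM, or with the mean of the CPM of single cells, Tdh alone was past it, and with the d16 cells split at 2000 CPM of Dppa5a, Mthfd2 alone. With d16+10p cells gated, Tdh (1.23) and Mthfd2 (1.18) were again the 2 higher genes and 0 were lower, where 0.657% of all genes were higher and 1.69% lower.

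After these passages, d16+10p cells lay within 2-fold of naive cells in 9 of the 10 genes. Bhmt was the 1 gene at least 2-fold lower (log2 ratio −3.49), and 0 were higher, where 0.614% of all genes were lower and 0.862% higher. As the Bhmt level of d16+10p did not exceed that of the macrophage gate, no exact fold is read from it. Tdh (0.03), Shmt2 (0.03) and Gldc (−0.04) had intervals of the ratio that included 0. Bcat1 (−0.88) and Mthfd2 (−0.39) stayed below naive, and with both populations gated on Dppa5a the ratios were −0.97 for Bcat1, −0.51 for Mthfd2 and −3.81 for Bhmt, which was again the 1 lower gene beside 0 higher ones, where 1% of all genes were lower and 1.03% higher. Bcat1 and Mthfd2 lie on chromosome 6, where the median log2 ratio of 479 genes was −0.23, against −0.0031 over the autosomes. Shmt1 (−0.23) lies on chromosome 11, where the median of 777 genes was −0.14. The part of these chromosome-wide shifts in the ratios of Bcat1, Mthfd2 and Shmt1 was not tested.

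**Figure D4:**
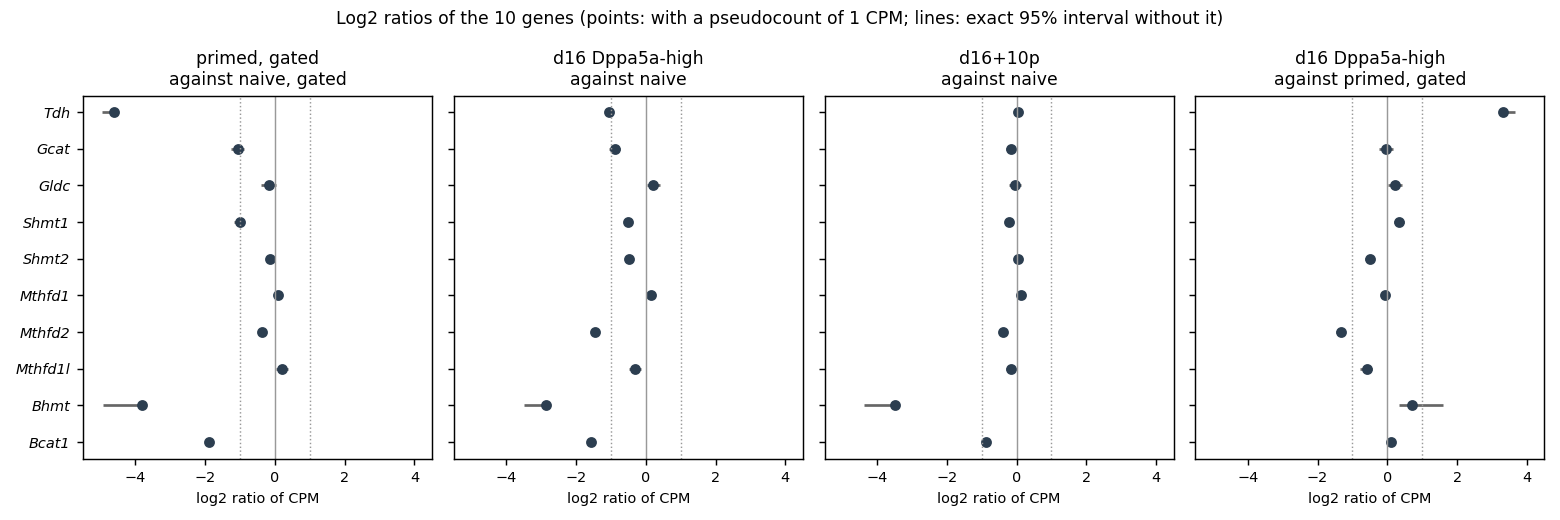
Log2 ratio of CPM (horizontal axis) of each of the 10 genes (vertical axis) in 4 comparisons; points include a pseudocount of 1 CPM, lines are exact 95% intervals without it, so that points of genes with a low level can sit at or beyond the end of their line, and dotted lines mark a 2-fold difference. Tdh is at −4.62 between gated primed and gated naive cells, −1.05 between d16 Dppa5a-high and naive and 0.03 between d16+10p and naive, and Bhmt is at −3.49 in the last of these.

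Primed and naive cells, the end points, differed in 5 of the 10 genes by at least 2-fold, all lower in primed, and 0 were higher. These were Tdh (log2 ratio −4.34), Bhmt (−3.69), Bcat1 (−2.17), Gcat (−1.23) and Shmt1 (−1.23), where 4.69% of all genes were lower and 3.55% higher. Tdh and Bhmt in primed cells did not exceed the macrophage gate, which is no clean background. No size of the decrease is therefore read from the ratios of these 2 genes. In gated cells of both populations the same 5 genes were lower, with Shmt1 (−1.01) and Gcat (−1.04) close to the limit. Of all genes, 6.56% were lower and 5.17% higher there. These gates keep naive cells with at least 1000 CPM of Dppa5a and primed cells with less. Within naive cells Tdh, Gcat and Bcat1 were higher at higher Dppa5a, so the gated result is no independent repeat. The median log2 ratio of 792 genes of chromosome 11, which carries Shmt1, was −0.18 in the gated comparison, and that of 488 genes of chromosome 6, which carries Mthfd2 and Bcat1, was −0.21, against 0.06 over the autosomes. Their part was not tested. In the gated cells Mthfd1 (0.10), Gldc (−0.18), Shmt2 (−0.13), Mthfd2 (−0.36) and Mthfd1l (0.20) differed little. Among the 10 genes, the folate genes other than Shmt1 thus did not set primed apart from naive cells by 2-fold. Outside the 10, Mthfd2l was at least 2-fold higher and the folate receptor Folr1 at least 2-fold lower in gated primed cells.

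At d8 the genes were low together. Of 9 genes compared with primed, 7 were at least 2-fold lower and 0 higher, where 3.28% of all genes were lower and 3.53% higher. Mthfd2 (log2 ratio −2.21) and Gldc (−1.60) came first, followed by Bcat1 (−1.52), Gcat (−1.46), Shmt2 (−1.26), Shmt1 (−1.02) and Mthfd1l (−1.0). Mthfd1 (−0.77) and Tdh (−0.44) were lower within 2-fold, and Tdh did not exceed the macrophage gate in either population. The median log2 ratio was −1.26 for the 9 genes and −0.02 for all genes compared. Against gated primed cells the decreases were larger, with Mthfd2 at −2.87 and 8 of 9 genes lower and 0 higher, where 6.12% of all genes were lower and 9.17% higher. All 7 macrophage markers were at least 2-fold higher in d8 than in primed, with sums of 2901 and 712 CPM, and the epithelial markers summed to 2630 and 1210 CPM. The pluripotent markers summed to 266 CPM in d8 and 815 CPM in primed. The part of this change in cell types in the lower levels was not tested.

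The other genes of these routes, 54 genes of threonine and serine metabolism, glycine cleavage, folate, methionine and betaine, branched-chain amino acids and amino acid transport, were counted in the same way. From d16 Dppa5a-low to Dppa5a-high cells, 41 of them were compared, of which 11 were at least 2-fold higher and 6 lower, where 11.2% of all genes were higher and 16.6% lower. Cth (16.6 against 2.17 CPM, log2 ratio 2.47), which makes cysteine from cystathionine, and Ahcy (116 against 33.3 CPM, 1.78), which splits S-adenosylhomocysteine, were the highest. Sardh (0.915 against 11.2 CPM, −2.68), the sarcosine dehydrogenase, Aldh1l1 (17.4 against 50.6 CPM, −1.49), which oxidises formyl-folate, and Ggh (23.9 against 58.7 CPM, −1.26), which removes glutamates from folate, were the lowest.

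Against naive cells, 0 of 40 of these genes were higher and 4 lower in d16 Dppa5a-high cells, where 2.66% of all genes were higher and 0.977% lower. Of the lower genes, Dmgdh (log2 ratio −1.50) belongs to betaine breakdown with Bhmt, and Bhmt2 (−1.46) encodes a second homocysteine methyltransferase. Psat1 (−1.19), the aminotransferase of serine synthesis, was at 67.9 CPM against 156 CPM. From there to d16+10p, 4 of 38 were higher and 0 lower, beside 0.557% and 1.63% of all genes. The arginine transporter Slc7a3 had a log2 ratio of 1.94 (13.3 to 54.1 CPM), Psat1 one of 1.47 (67.9 to 189 CPM) and Psph, the last enzyme of serine synthesis, one of 1.22 (18.8 to 45.1 CPM). Psat1 and Mthfd2 thus shared a course in which d16 Dppa5a-high cells lay below naive, gated primed and d16+10p cells. Psat1 was at 190 CPM in gated primed cells.

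Between primed and naive, 0 of 41 of the other genes were higher and 5 lower in primed, beside 3.55% and 4.69% of all genes. The lower ones were led by Dmgdh (−2.38), Bhmt2 (−1.95) and Cth (−1.75). In gated cells of both populations, 3 of 41 were higher in primed and 6 lower, beside 5.17% and 6.56% of all genes. The higher ones were Mthfd2l and the transporters Slc1a4 and Slc7a3. Between d16 Dppa5a-high and primed, 2 of 39 were higher, the folate receptor Folr1 (2.02) and Amt (1.25), and 3 lower, Slc7a3 (−1.59), Mthfd2l (−1.22), a paralog of Mthfd2, and the glutamine transporter Slc38a1 (−1.03). Over the whole primed tag these counts are near the shares of all genes, 6.49% higher and 4.78% lower. Against gated primed cells, 2 of 39 were higher and 6 lower, beside 7.76% and 3.19% of all genes. Slc7a3 and Psat1 were the lowest there. At d8, 10 of 36 were lower than in primed and 0 higher, beside 3.28% and 3.53% of all genes, led by Slc7a3 (−2.66), Psat1 (−2.21) and Slc7a5 (−1.65), a transporter of large neutral amino acids. Between d16+10p and naive, the transporter Slc1a4 (1.04) was the 1 higher gene of 41, and Dmgdh (−2.10) and Bhmt2 (−1.83) were the 2 lower ones, beside 0.862% and 0.614% of all genes.

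The 2 lower genes of that last comparison are the neighbours of Bhmt. Bhmt lies on chromosome 13 at 93616891 to 93637758, Bhmt2 at 93656097 to 93674302 and Dmgdh at 93674436 to 93752823 (GRCm38.p6). Bhmt2, a second homocysteine methyltransferase, was at 12.9 CPM in naive, but 2.58 CPM in primed, 3.12 CPM in d8, 2.48 CPM in d16 Dppa5a-low, 4.04 CPM in d16 Dppa5a-high and 2.90 CPM in d16+10p. Dmgdh, the dimethylglycine dehydrogenase that takes up the product of Bhmt, was at 15.0, 2.08, 1.48, 2.14, 4.67 and 2.74 CPM in the same order. All 3 genes were therefore highest in naive. For Bhmt2 the intervals of d16 Dppa5a-high and d8 overlapped.

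The genes on both sides did not share this course. Between d16+10p and naive, the protein-coding neighbours with at least 10 CPM in either population on one side, Tent2 (log2 ratio −0.08), Homer1 (0.35), Jmy (0.09) and Gm6109 (0.15), and on the other, Lhfpl2 (−0.24), Scamp1 (−0.11), Ap3b1 (−0.06) and Tbca (−0.22), were all within 2-fold. Arsb, which follows Dmgdh, did not reach 10 CPM in either, at 3.13 CPM in naive and 2.52 CPM in d16+10p. The lower levels thus covered a run of 3 protein-coding genes. The naive cells being of another line, a difference of the line and one of the state cannot be told apart for these genes.

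**Figure D5:**
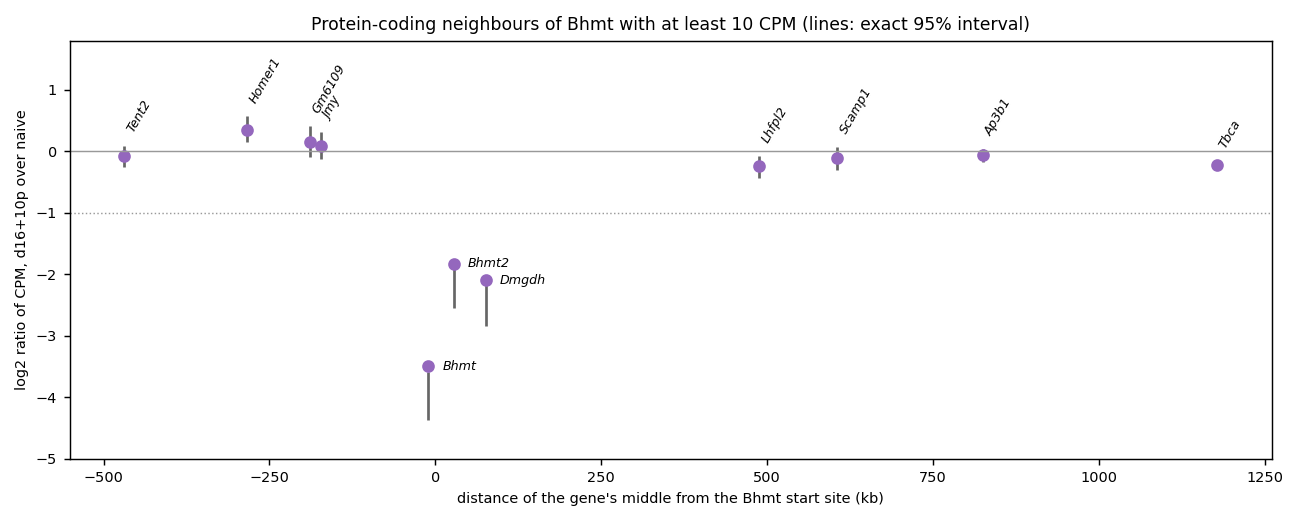
Log2 ratio of CPM between d16+10p and naive cells (vertical axis) of protein-coding genes with at least 10 CPM in either population, against the distance of the middle of each gene from the Bhmt start site in kb (horizontal axis); points include a pseudocount of 1 CPM, lines are exact 95% intervals without it and the dotted line marks a 2-fold decrease. Bhmt (−3.49), Bhmt2 (−1.83) and Dmgdh (−2.10) lie far below the line, and the 8 flanking genes lie between −0.24 and 0.35.

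Genes of like course were sought for each of the 10 among 4866 genes with at least 50 CPM in a group, by the root mean square difference of centred log2 levels over 6 groups (naive, primed, d8, both parts of d16 and d16+10p). All groups come from the same library, and a small difference is a description. For Tdh the nearest were Calcoco2 (0.345), Rps4l (0.359) and Nr0b1 (0.381). Nr0b1 encodes a nuclear receptor known from embryonic stem cells. For Mthfd2 the nearest was Psat1 (0.358), followed by Mcm5 (0.407) and L1td1 (0.427). Gcat was nearest to Tk1 (0.211), Uhrf1 (0.257) and Tyms (0.285), and Shmt1 to Mcm5 (0.176), Zfp961 (0.189) and Dkc1 (0.200). Of these, Tk1, Tyms and Mcm5 are known genes of DNA synthesis.

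For the other genes the nearest were as follows. Gldc was nearest to Cenpa (0.0925) and Lmnb1 (0.105), and Mthfd1 to Mdn1 (0.0661), Ncl (0.0662) and Psmg1 (0.0665). Among the 3 nearest to Shmt2 were Pck2 (0.228) and Tubb2b (0.230), and among those of Mthfd1l were Dnajb14 (0.0895) and Vamp3 (0.102). For Bcat1 the nearest were Uhrf1 (0.437), Pdp2 (0.441) and Tk1 (0.443), and for Bhmt the predicted genes Gm47654 (0.404), Gm48216 (0.522) and Gm47031 (0.670). No gene searched came as close to Bhmt, Bcat1, Mthfd2 or Tdh as the nearest genes did to the other 6. Bhmt2 and Dmgdh, the neighbours of Bhmt with a like course, did not reach 50 CPM in any group and were not searched.

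Reads of near-identical transcripts can be shared between genes in these counts. Of the 31-base words in the GENCODE transcripts of Bhmt, 29.8% also occurred in another gene, 27.1% in Gm5096 alone and 0.695% in Bhmt2. Gm5096 itself was at 2.49 CPM in naive and at most 0.114 CPM elsewhere. For Tdh the share was 17.1%, all with Gm13929, which was at no more than 0.648 CPM in any population, and for Gcat 11.4%, with Galr3, at no more than 0.0762 CPM. The remaining genes shared at most 3.55%, and Mthfd1 and Mthfd2 shared 0 words with any other gene.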

How the data were processed

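The deposited table holds unnormalized read counts for 33963 gene symbols in 17720 cells. Cells of 5 populations had been labelled with oligonucleotide tags carried by antibodies against CD9 and CD63, captured on BD Rhapsody, and read in 1 pooled cDNA library made by TAS-Seq, without a described collapsing of reads into molecules. The authors trimmed reads with cutadapt 2.10, mapped them with Bowtie2 2.3.4.1 to mouse transcripts (mm10) and assigned each cell to 1 tag. Of the cell numbers, 0 appeared in more than 1 column.

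Levels are summed reads of a gene per 1000000 reads of a group (CPM), computed here with Python 3.11.15, numpy 2.4.6 and scipy 1.17.1. Ratios are log2 ratios with a pseudocount of 1 CPM and were counted at 2-fold among genes that reached 10 CPM in one of the groups and 100 summed reads in both together. Intervals (95%) are exact: Poisson for levels, Clopper-Pearson for shares of cells, and binomial without the pseudocount for ratios. Shares were taken after thinning each cell to 5000 reads, which left out 68 naive, 271 primed, 755 d8, 40 d16 Dppa5a-high, 564 d16 Dppa5a-low and 69 d16+10p cells and 163 cells of the macrophage gate (at least 2000 CPM of C1qa, C1qb, C1qc, Csf1r, Tyrobp, Fcer1g and Lyz2). With 1 sample per population, no test between populations was made. The computation of ratios and intervals was checked on simulated sums. Doublets had been removed by tag before deposit and were not called again.

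Coordinates and promoters were taken from RefSeq (GRCm38.p6), to which 28065 of the 33963 symbols matched. Named genes are the 10 genes, up to 3 other genes of the pathway lists past 2-fold in each direction of a comparison, and the 3 genes nearest in course to each, apart from some genes that are not reported here; Amt and Psat1 in gated primed cells, and the neighbours of Bhmt, were chosen after their values were seen. The 10 genes, the lists and the comparisons were chosen with earlier results of these data known. Alternatives were the pseudocount, the lowest level compared, the split of Dppa5a, thinning, the mean over cells, TMM factors (edgeR 4.0.16), a limit on genes per cell, and subsets of cells.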

Additional observations from a re-analysis of the deposited data

How the results depend on the processing

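Of 620 log2 ratios recomputed under the alternatives, 0 that were past 2-fold changed sign. Among the 230 past 2-fold, 207 stayed past it and 23 fell below. A further 17 of the smaller ones changed sign. Of 152 counts, 143 stayed within 1.5 times. With a pseudocount of 10 CPM, the genes higher in d16 Dppa5a-high than in d16 Dppa5a-low cells were 4, those higher in d16+10p than in d16 Dppa5a-high cells 1, and those lower in d8 than in primed cells 3. The count of genes higher in d16+10p than in d16 Dppa5a-high cells was also 1 with the mean of CPM per cell and with a split at 2000 CPM. With genes compared from 50 CPM on, a limit that leaves fewer genes to compare, 0 were lower in d16+10p than in naive, 3 in primed than in naive and 3 in d8 than in primed cells. With gated cells, a setting chosen after seeing the data, 1 gene, Mthfd2, was lower in d16 Dppa5a-high than in primed cells. For the pseudocount, the mean per cell, the split and the gate, the cause was not tested. Without thinning, all 60 shares of cells with a read moved. A threshold of 23.7 CPM found by Otsu's method for the summed pluripotent markers kept 75.2% of primed cells and so did little to separate cell types. No replicate could be left out, and no paired analysis was possible because each population was 1 sample. Bhmt did not reach 10 CPM in either group of the comparisons without naive cells and was not counted there.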
